A study of Mus musculus with 6 samples.

Results

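The 10 genes described here encode the enzymes that make, break down and regulate the polyamines putrescine, spermidine and spermine in mouse cells. They were taken by symbol from a count table of 53735 features, by a rule that uses no measured value, though the set was proposed with earlier results of these data known: Odc1, Amd1, Srm and Sms for synthesis, Azin1, Oaz1 and Oaz2 for the control of ornithine decarboxylase by antizyme, and Sat1, Smox and Paox for catabolism. All 10 were found in the table and all 10 had enough reads to be tested. The libraries came from bone marrow stromal cells of wild-type mice, sorted as CD51+ cells that lacked lineage markers, CD45 and CD31, grown at 2% oxygen and studied at passage 2 or 3. The 3 fed libraries came from cells that had been given 5000000 dye-labelled apoptotic thymocytes per well for 24 h at 5% oxygen and that carried the dye when sorted. The 3 control libraries came from sorted cells of wells given no thymocytes, and the labels do not state the oxygen of these wells during the last 24 h, so feeding and a change of oxygen cannot be told apart. Only the fed cells were selected for the dye. An effect of uptake therefore cannot be told apart from an earlier difference of the cells that took up thymocytes. The comparison asks how uptake of dying cells bears on gene expression in cells of the mesenchymal and osteoblast lineage.

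Polyamines are small positively charged molecules that bind RNA, DNA and phospholipids, and dividing cells need them. Ornithine decarboxylase, encoded by Odc1, makes putrescine from ornithine, and spermidine synthase (Srm) and spermine synthase (Sms) each add an aminopropyl group that is supplied by S-adenosylmethionine decarboxylase (Amd1). Antizymes (Oaz1, Oaz2) bind ornithine decarboxylase and send it to the proteasome, while the antizyme inhibitor Azin1, an inactive relative of the decarboxylase, takes antizyme away from it. Spermidine/spermine acetyltransferase (Sat1) starts the return path, acetylated polyamines are oxidised by Paox, and Smox oxidises spermine directly. Professional phagocytes such as macrophages are known to draw arginine and ornithine from engulfed apoptotic cells into putrescine.

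Much of the control of this pathway acts on translation and protein stability, which counts of RNA do not measure. The clearest sequences of this kind lie in Oaz1 and Oaz2, whose ribosomes must skip a single base to read past an early stop codon, and do so more often when polyamines are plentiful. They are shown with the shift site in capitals, 5′ to 3′, on the plus strand of GRCm38 from GENCODE release M21 transcripts.
Oaz1 chr10:80828280-80828309: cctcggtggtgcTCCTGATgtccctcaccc
Oaz2 chr9:65686257-65686286: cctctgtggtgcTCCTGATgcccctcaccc
Both windows lie in coding sequence, 28 of their 30 bases are identical, and the base that the annotated coding models leave out is the T of the TGA, at position 80828295 in Oaz1 and 65686272 in Oaz2. Amd1 has a different translational switch, a short upstream reading frame on which ribosomes stall when polyamines are plentiful. It lies in the 5′ UTR from base 14 of the RefSeq transcript, holds 6 codons before its stop, and is shown with start and stop codons in capitals, on the minus strand.
Amd1 chr10:40302155-40302175: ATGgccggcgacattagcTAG

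Upstream sequence was available for 8 of the 10 genes, all but Srm and Azin1, as 10 entries reaching from 250 bases before to 50 bases after a start site (RefSeq, GRCm38.p6). Sequence outside these entries was not searched for the motif below. The letters CACGTG, the E-box read by MYC and MAX and by other factors of their class (the same on both strands), occurred in 1 of the 10 entries and in 7.15% of the 32851 entries of all genes. That entry belonged to the upstream of the start sites listed for Sms, where the motif begins 196 bases before the start. It is shown with the motif in capitals, on the minus strand, and the downstream Sms entry does not hold it.
Sms chrX:157492453-157492508: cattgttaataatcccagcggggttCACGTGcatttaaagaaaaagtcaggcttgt

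Genes of polyamine synthesis were higher in fed cells. Of the 10 genes, 5 rose (Odc1, Amd1, Srm, Sms and Azin1), 1 fell (Oaz2) and 4 did not pass (Oaz1, Sat1, Smox and Paox), at an adjusted p under 0.05 by edgeR's quasi-likelihood test. Over all 13092 genes tested, 39.5% were called, 20.5% higher and 19.0% lower, so calls were common in this comparison. Every one of the 4 synthesis genes rose, with log2 fold changes from 0.25 to 0.53, whereas none of the 3 genes of catabolism was called. The median log2 fold change of the 10 genes was 0.18, against -0.01 over all genes tested. The groups did not overlap for 7 of the 10, against 49.1% of all genes tested. Whether the 3 libraries per group trace back to different wells or mice is not stated, so each p-value sets a difference against variation among these libraries that could be technical alone. In bulk RNA of this kind, expression by fewer cells and less RNA per cell cannot be told apart. Libraries held 19069074 to 22410047 counts.

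Fed cells had met thymocytes, so markers of other cells were read in the same libraries, in counts per 1000000 (CPM). Summed over 13 thymocyte and T cell markers, the level was 0.417 to 0.895 CPM in control and 0.736 to 1.64 CPM in fed libraries, with Cd3g, Rag2 and Ptcra at 0 in all 6. Single markers went both ways, on very few counts. Dntt, a gene of immature lymphocytes, was at 0 in every control library and at 0.248, 0.0460 and 0.132 CPM in the fed libraries. Ptprc (CD45), Cd8a, Cd8b1 and Rag1 were also higher in every fed library than in any control. Ptprc was at 0 to 0.0472 CPM in control and at 0.0920 to 0.248 CPM in fed libraries. Lck, which made up most of the control sum, was at 0.371, 0.520 and 0.790 CPM in control and at 0.347, 0.184 and 0.529 CPM in fed libraries, and Themis and Cd3d also had lower means in fed cells. The 6 macrophage markers summed to 10.9 to 11.7 CPM in control and 11.8 to 12.7 CPM in fed libraries, with Fcgr1 at 0 throughout and Cd14 called higher among the 3 tested. Adgre1 (0.132 to 0.248 CPM in fed libraries) and Itgam (0 to 0.0920 CPM) were at 0 in every control library, on very few counts. Csf1r and Cd68 overlapped between the groups. The 5 endothelial markers summed to 2.83 to 3.49 and 2.67 to 3.30 CPM, with Cdh5 and Emcn at 0. The 7 stromal markers were abundant in all libraries, and summed to 35731 to 37186 CPM in control and 31313 to 33246 CPM in fed libraries. Most of this sum was Col1a1 (19105 to 19585 CPM in control, 17260 to 18385 in fed libraries) and Col1a2 (12191 to 12743 and 10607 to 11290). Of the 7, 5 were called lower, beside 19.0% of all genes tested, and Itgav overlapped between the groups. The part of these shifts in the polyamine results was not tested.

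**Figure D1:**
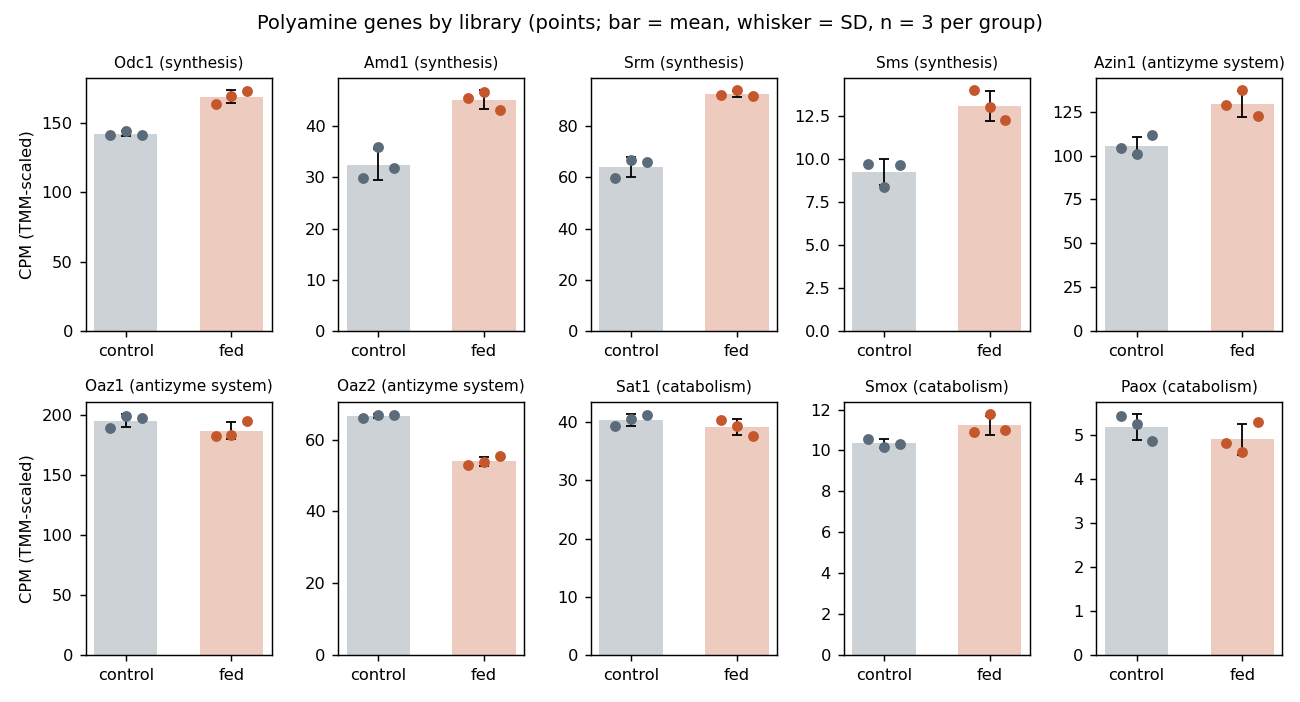
CPM scaled by TMM (y axis, from 0) for each of the 10 polyamine genes in the 3 control and 3 fed libraries (points), with the mean as a bar and the SD as a whisker. The fed points lie above all control points for Odc1, Amd1, Srm, Sms, Azin1 and Smox and below them for Oaz2, while Oaz1, Sat1 and Paox overlap.

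Odc1, the decarboxylase that opens the pathway (GRCm38 chromosome 12, 17544794 to 17551505, plus strand), was at 141, 144 and 142 CPM in the control libraries and at 164, 169 and 173 in the fed libraries. Every fed library was above every control library, and the distance between the groups was larger than the spread within either. The mean went from 142 ± 1.55 to 169 ± 4.57 CPM (SD, n = 3), which is 1.19-fold with a 95% interval of 1.12 to 1.25. On the log2 scale this rise was 0.25 ± 0.037 (SE), with an adjusted p of 2.11e-05. This was the smallest rise among the synthesis genes, and it exceeded the log2 fold change of 83.9% of the genes tested.

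Amd1, whose product supplies the aminopropyl groups (chromosome 10, 40287458 to 40302186, minus strand), had 29.8, 35.9 and 31.8 CPM in control cells and 45.5, 46.7 and 43.2 CPM in fed cells. The lowest fed library stood well above the highest control library, control replicate 2. Its mean rose 1.39-fold, from 32.5 ± 3.09 to 45.1 ± 1.81 CPM, or by 0.47 ± 0.061 on the log2 scale (adjusted p = 4.70e-06). Mouse Amd2, a near-identical intronless copy of Amd1, held 0 to 7 counts per library, against 603 to 1016 for Amd1. With the counts of Amd1 and Amd2 summed, the log2 fold change was 0.48, and the call was the same. With so few Amd2 counts the sum could hardly differ. It does not cover reads that match both copies, whose treatment is not given. Of 5 features named as Amd pseudogenes, the most abundant, Amd-ps3, held 8 to 17 counts per library.

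Srm, which makes spermidine from putrescine (chromosome 4, 148591503 to 148594993, plus strand), had the highest fitted fold change of the 10 genes, though Sms was above it without control replicate 1 (0.54 against 0.48 on the log2 scale) and without fed replicate 3 (0.55 against 0.54). It was at 59.7, 66.8 and 65.8 CPM in control cells and at 92.2, 93.9 and 91.6 CPM in fed cells. The 3 fed libraries lay close together and far above the controls. From 64.1 ± 3.85 to 92.6 ± 1.16 CPM, the log2 fold change was 0.53 ± 0.045 (adjusted p = 1.38e-08), which is 1.45-fold (95% interval 1.35 to 1.54) and more than that of 95.7% of the genes tested.

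Sms, which turns spermidine into spermine (chromosome X, 157443855 to 157492287, minus strand), was a weakly expressed gene with 177 to 209 counts in control and 278 to 283 counts in fed libraries. On the scale of CPM it was at 9.68, 8.36 and 9.64 in control and at 14.0, 13.0 and 12.2 in fed cells, with no overlap. Its log2 fold change of 0.50 ± 0.088 (adjusted p = 0.000120) had the widest interval of the 4 synthesis genes, 0.32 to 0.69. At this depth counting error alone gives a coefficient of variation of 7.26%, close to the 8.15% seen between control libraries. The intervals of Amd1, Srm and Sms overlapped, so no order among these 3 rises was resolved.

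**Figure D2:**
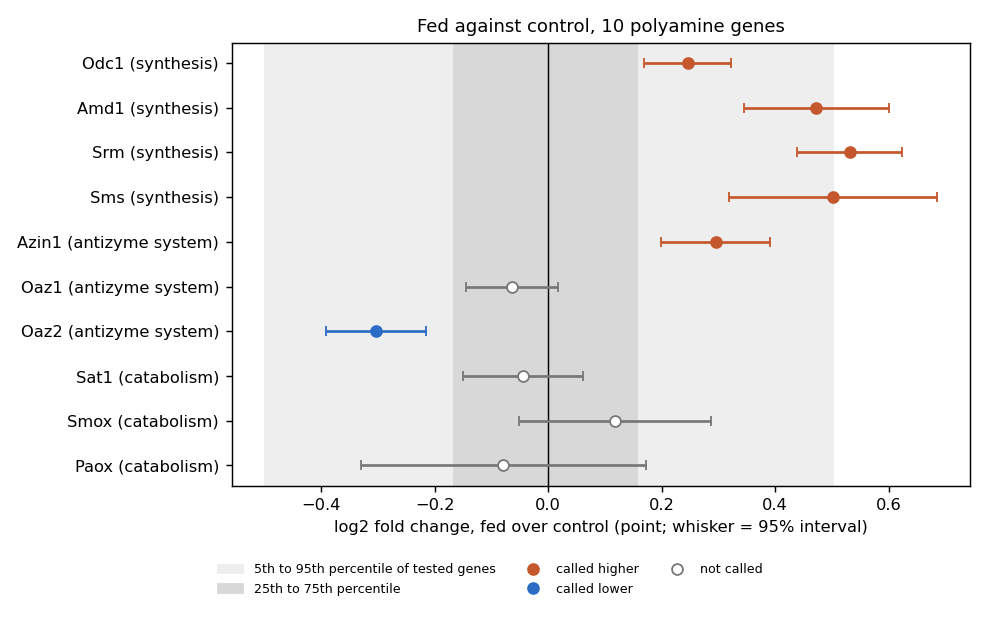
Log2 fold change of fed over control (x axis) for the 10 genes, with 95% intervals as whiskers. Grey bands mark the 5th to 95th percentile (-0.50 to 0.50) and the 25th to 75th percentile (-0.17 to 0.16) of all 13092 genes tested. The points of the 4 synthesis genes and Azin1 lie to the right of the inner band, that of Oaz2 to its left, and those of the 4 genes not called inside it.

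The antizyme system went both ways. Azin1, the antizyme inhibitor (chromosome 15, 38487427 to 38519266, minus strand), was at 104, 101 and 111 CPM in control cells and at 129, 137 and 122 CPM in fed cells. It rose 1.23-fold, from 106 ± 5.31 to 130 ± 7.35 CPM, or by 0.30 ± 0.046 on the log2 scale (adjusted p = 3.99e-05), with every fed library above every control library. The annotation places an antisense gene, Gm49077, over 358 exonic bases of Azin1. No feature of the count table had the symbol Gm49077, and the sources used here do not give the strand setting of the counting, so reads from that stretch are less certain.

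Oaz2 (chromosome 9, 65668001 to 65690300, plus strand) was the only one of the 10 genes to fall. It had 66.0, 66.9 and 66.9 CPM in the control libraries and 52.9, 53.7 and 55.3 CPM in the fed libraries. These were tight groups, with coefficients of variation of 0.744% and 2.30%. The log2 fold change was -0.30 ± 0.042 (adjusted p = 8.96e-06), or 0.811-fold with a 95% interval of 0.763 to 0.862.

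Oaz1, the more abundant antizyme (chromosome 10, 80826656 to 80829290, plus strand), did not pass. It was at 189, 199 and 198 CPM in control cells and at 182, 183 and 195 CPM in fed cells, and the groups overlapped through fed replicate 3. Its log2 fold change was -0.06 ± 0.039 (adjusted p = 0.206), with a 95% interval of -0.14 to 0.02, which does not reach the fall of Oaz2. The difference between Oaz1 and Oaz2 was itself not tested. Oaz1 shares 74 exonic bases with the microRNA gene Mir1982 on the same strand, so reads from that stretch are less certain. Mir1982 had 0 counts in every library. All of its 74 bases are also exonic in Oaz1, and the treatment of reads that overlap both genes is not given. These 0 counts therefore do not show that the stretch drew no reads. Pseudogenes of both antizymes were near the floor of the table, with 13 to 22 counts per library for Oaz1-ps and 0 or 1 for Oaz2-ps.

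Genes of polyamine catabolism were not called. Sat1, the acetyltransferase whose activity usually limits polyamine breakdown and export (chromosome X, 155213132 to 155216449, minus strand), was at 39.3, 40.5 and 41.3 CPM in control and at 40.4, 39.4 and 37.6 CPM in fed cells. The groups overlapped, and the log2 fold change of -0.04 ± 0.050 (adjusted p = 0.516) had a 95% interval of -0.15 to 0.06. Changes of the size seen in Amd1, Srm or Sms lie outside that interval in both directions.

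Smox, the spermine oxidase (chromosome 2, 131491496 to 131525922, plus strand), was at 10.6, 10.2 and 10.3 CPM in control and at 10.9, 11.8 and 11.0 CPM in fed cells. Each fed library was above each control library, but the distance was small and the log2 fold change of 0.12 ± 0.081 was not called (adjusted p = 0.267, 95% interval -0.05 to 0.29). Paox, the oxidase of acetylated polyamines (chromosome 7, 140115799 to 140137224, plus strand), was the least abundant of the 10 with 92 to 120 counts per library, or 5.17 ± 0.294 CPM in control and 4.90 ± 0.352 CPM in fed cells. Its groups overlapped (log2 fold change -0.08 ± 0.12, adjusted p = 0.635), and the interval of -0.33 to 0.17 is too wide to separate no change from a fall as large as that of Oaz2. Paox also shares 142 exonic bases with Echs1 on the opposite strand, which had a log2 fold change of -0.20.

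**Figure D3:**
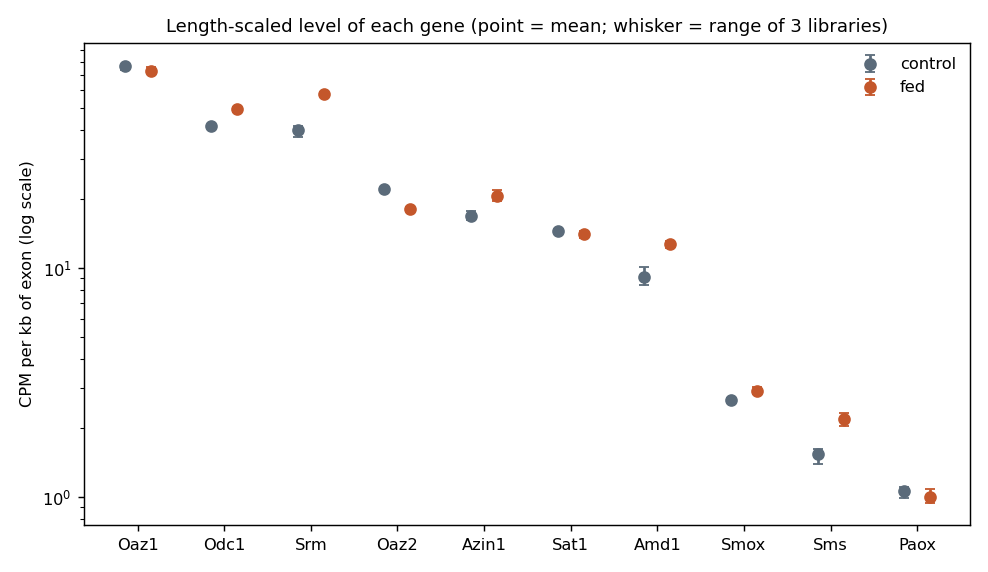
Level per length of each gene, as CPM per kilobase of exon on a log axis, for control and fed libraries (point = mean, whisker = lowest and highest of 3 libraries), ordered by the control mean. Oaz1 is highest at 76.3 in control cells and Paox lowest at 1.05.

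To compare levels between genes, CPM were divided by the length of all annotated exons. On this scale Oaz1 was the most abundant in control cells at 76.3 ± 2.09 CPM per kilobase. Odc1 at 41.8 ± 0.457 and Srm at 40.1 ± 2.41 came next, and their control libraries overlapped, so these neighbours were not separated. They were followed by Oaz2 at 22.3, Azin1 at 16.9, Sat1 at 14.5 and Amd1 at 9.18 CPM per kilobase, none of which overlapped its neighbours. Smox at 2.66, Sms at 1.54 and Paox at 1.05 CPM per kilobase closed the list, again without overlap. In fed cells Srm (57.9 ± 0.723) was above Odc1 (49.6 ± 1.34) and Azin1 (20.7 ± 1.17) above Oaz2 (18.1 ± 0.415). These 2 changes of place depended on the lengths used. With the length of the longest coding transcript, an alternative chosen after seeing the data, Odc1 at 76.4 CPM per kilobase was above Srm at 69.2 in fed cells, and Oaz2 at 29.3 above Azin1 at 26.6. Sat1 also moved above Azin1 with those lengths, in both groups, and above Oaz2 in fed cells, while Oaz1 stayed first and Amd1, Smox, Sms and Paox stayed in seventh to last place.

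Ratios of counts between genes of the same library do not depend on how libraries are scaled, and they are given as descriptions without a test. Odc1 per Oaz1 was 0.748, 0.725 and 0.716 in the control libraries and 0.899, 0.926 and 0.889 in the fed libraries. The fed libraries held 1.24 times as many Odc1 counts per Oaz1 count, with no overlap. Odc1 per Azin1, in contrast, was 1.35 ± 0.0778 in control and 1.31 ± 0.0948 in fed cells (SD, n = 3), with overlapping groups.

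Within the synthesis arm, 2 ratios were formed. Amd1 per Srm was 0.507 ± 0.0280 in control and 0.487 ± 0.0143 in fed cells, and Srm per Sms was 6.99 ± 0.924 and 7.10 ± 0.452, both with overlap. The 95% intervals of the log2 fold changes of Odc1 (0.17 to 0.32) and Srm (0.44 to 0.62) did not meet, and their ratio was not formed. Sat1 per Srm, whose denominator is the gene with the highest fold change of the 10, was 0.658, 0.606 and 0.628 in control and 0.438, 0.420 and 0.411 in fed libraries, a ratio of the means of 0.670. Smox per Sat1 was 0.257 ± 0.0106 in control and 0.287 ± 0.0152 in fed cells, where the lowest fed library (0.270) was only just above the highest control library (0.269).

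**Figure D4:**
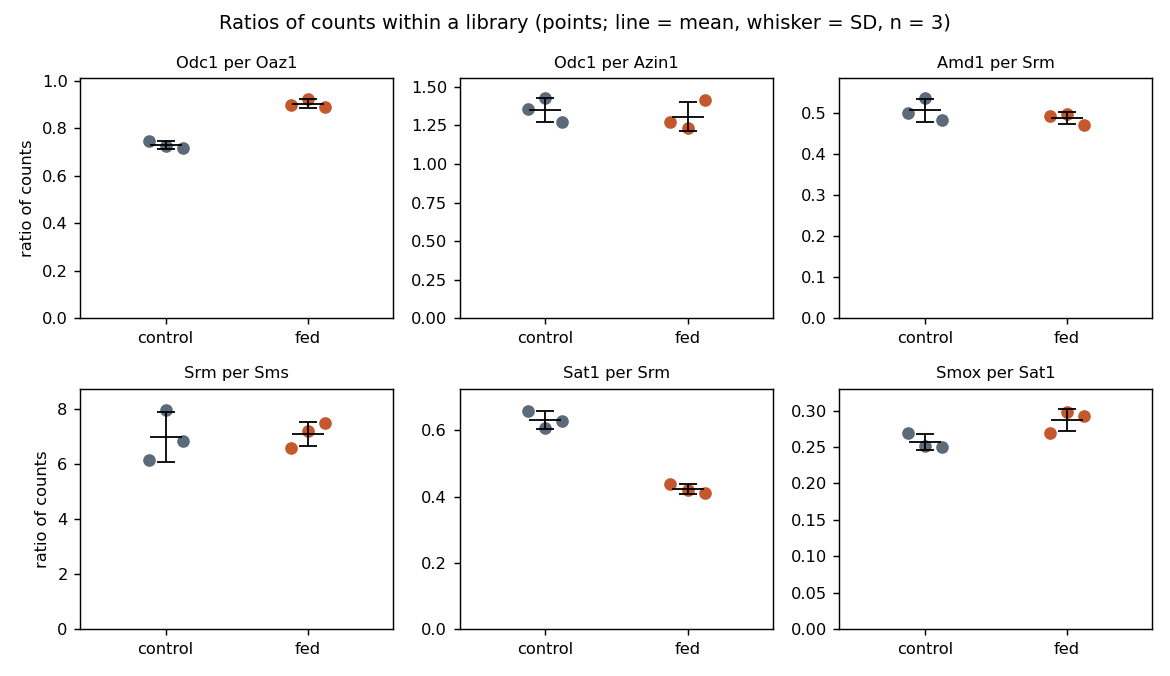
Ratio of counts of 2 genes in the same library (y axis, from 0) for the control and fed libraries (points), with the mean as a line and the SD as a whisker. Odc1 per Oaz1 is higher and Sat1 per Srm lower in every fed library, while Odc1 per Azin1, Amd1 per Srm and Srm per Sms overlap.

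Around these genes, 31 others were listed, and 21 had enough reads to be tested. The list holds genes of substrate supply, methylthioadenosine salvage, hypusination, and transport and oxidation. It also holds paralogs of the members and MYC factors. Of the 21, 10 rose, 4 fell and 7 did not pass, with a median log2 fold change of 0.17 against -0.01 over all genes tested, of which 20.5% were called higher and 19.0% lower. The salvage of methylthioadenosine, the by-product of the Srm and Sms reactions, had 4 of 5 genes higher and none lower, beside the 20.5% called higher over all genes tested. Mtap, the phosphorylase that opens this salvage, rose from 78.1 ± 2.20 to 92.3 ± 1.35 CPM (0.24 ± 0.039 on the log2 scale, adjusted p = 5.97e-05), and on that scale Enoph1 rose by 0.42, Mri1 by 0.26 and Apip by 0.20. The call of Apip was lost by DESeq2 (adjusted p = 0.116) and on leaving out any 1 of controls 1 (0.0711) and 3 (0.0540) and fed libraries 1 (0.0755) and 3 (0.0720). Adi1, the last enzyme listed for this route, was 0.15 higher on the log2 scale, which missed the threshold (adjusted p = 0.0516) but passed under 5 of 16 alternatives.

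Hypusination, which uses spermidine to modify the translation factor eIF5A, had 3 of 4 genes higher, beside the same 20.5% over all genes tested. Eif5a, the substrate, was at 596, 641 and 716 CPM in control and at 754, 806 and 817 CPM in fed libraries. The groups did not overlap, and the log2 fold change was 0.28 ± 0.060 (adjusted p = 0.00285). Eif5a2, its less abundant paralog, rose by 0.41 on the log2 scale. Dhps, the deoxyhypusine synthase, rose from 14.5 ± 0.958 to 16.9 ± 0.805 CPM (log2 fold change 0.22, adjusted p = 0.0207), a call lost by DESeq2 (0.0886) and on leaving out any 1 of control 2 (0.122) and fed libraries 1 (0.0643) and 2 (0.0705). Dohh, the hydroxylase that completes hypusine, had 110 to 191 counts per library. Its difference of 0.31 ± 0.12 on the log2 scale was not called (adjusted p = 0.0552), though it passed under 5 of 16 alternatives. Without fed replicate 3, which held the 191 counts, the difference was 0.17 (adjusted p = 0.341).

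Substrate supply was mixed. Mat2a, which makes S-adenosylmethionine, was at 76.3, 73.7 and 77.4 CPM in control and at 104, 106 and 103 CPM in fed libraries. The log2 fold change of 0.46 ± 0.039 (adjusted p = 1.39e-08) was close to that of Amd1, the next enzyme on this branch. Mat2b, the regulatory subunit of the same enzyme, had 47.9 CPM in both groups (adjusted p = 0.975). Slc7a1, a carrier of arginine and other cationic amino acids, rose by 0.30 on the log2 scale. Oat, which links ornithine to glutamate and proline, fell by 0.12 (adjusted p = 0.00994), a call lost with library totals only (0.0646) and without fed replicate 2 (0.0546). The arginases, which make ornithine from arginine, were almost absent. Arg1 had 0 counts in every control library and 0, 3 and 5 in the fed libraries, and Arg2 had at most 3 counts in any library, too few to test in either case.

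Transport and the paralogs were lower or not called. Atp13a3, a polyamine transporter of endosomes, fell from 190 ± 7.23 to 173 ± 2.15 CPM (-0.13 on the log2 scale, adjusted p = 0.00803), and the amino acid carrier subunit Slc3a2 fell by 0.13, a call lost with library totals only (adjusted p = 0.0607) or without fed replicate 1 (0.0642). The related lysosomal transporter Atp13a2 was not called (-0.05 on the log2 scale, adjusted p = 0.559). Nor was the vesicular carrier Slc18b1 (0.16, adjusted p = 0.0509), which passed under 5 of 16 alternatives. Azin2, a second antizyme inhibitor, fell from 25.6 ± 1.96 to 20.7 ± 0.792 CPM. On the log2 scale this was -0.31 ± 0.067 (adjusted p = 0.000911). Azin1 and Azin2 were thus called in opposite directions. Sat2 was not called (adjusted p = 0.581), and Oaz3, the antizyme of male germ cells, had 0 to 2 counts per library. Myc, a transcription factor known to drive Odc1, rose from 35.9 ± 1.00 to 40.3 ± 0.542 CPM (log2 fold change 0.17 ± 0.050, adjusted p = 0.0115), a call lost by DESeq2 (0.0536) and without control replicate 1 (0.0572). Its partner Max was not called (adjusted p = 0.605), and Mycn had no counts.

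**Figure D5:**
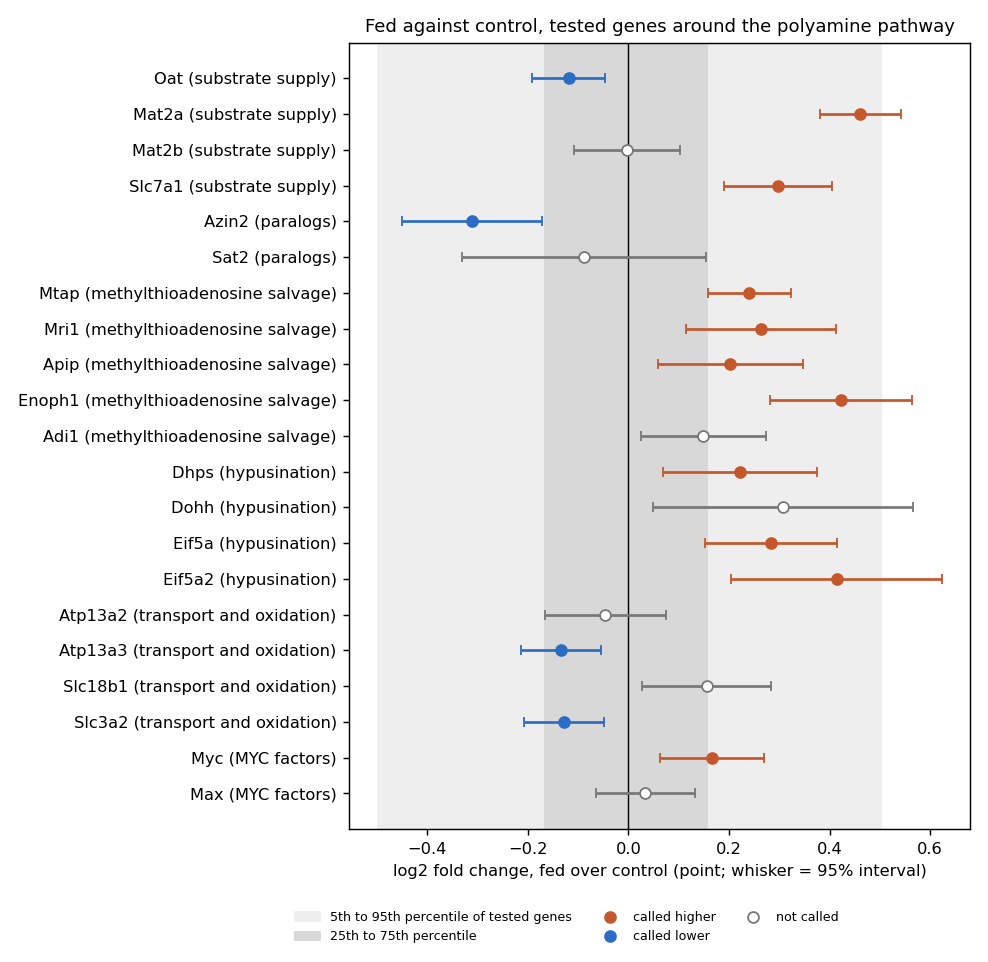
Log2 fold change of fed over control (x axis) with 95% intervals for the 21 tested genes around the pathway, with their role in brackets and the spread of all genes tested as grey bands. Mat2a, Enoph1 and Eif5a2 lie farthest to the right and Azin2 farthest to the left.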

How the data were processed

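The table deposited by the authors holds raw counts per gene entry, each with a symbol. Some symbols occur in more than 1 entry, but each of the members had a single entry. The submitters' processing notes name featureCounts (Subread 1.6.1), STAR 2.6.0c, Trimmomatic 0.36, MultiQC 1.5 and the build GRCm38. Libraries were made from 200 ng of RNA with a stranded mRNA kit, per the labels. The sources used here do not give the annotation release, strand setting or treatment of multi-mapping reads. The counts were fitted by edgeR 4.0.16 under R 4.3.3 (filterByExpr, TMM, robust quasi-likelihood F-test across all genes, Benjamini-Hochberg), and a gene was called at an adjusted p under 0.05. CPM are counts per 1000000 of the TMM-scaled total. Standard errors come from the F statistic, and 95% intervals from its t distribution. Positions and exon lengths are GENCODE M21 on GRCm38. The members and the gene lists were chosen with earlier results of these data known. All members are named, as are 8 set genes and every called gene of the wider list. Other genes were named after their values were seen. Pairs of libraries of a group differed by more than counting noise (chi-square per degree of freedom 2.65 to 6.14), so none was taken as a copy of another, which does not show that they are independent cultures. Alternatives were other normalizations, filters, DESeq2 1.42.0, limma-voom 3.58.1, no robust estimation, a replicate block, a stricter threshold and each library left out.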

Additional observations from a re-analysis of the deposited data

How the results depend on the processing

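The calls of the 10 polyamine genes kept their direction and their side of the threshold under all 16 alternatives run on each, and Amd1 also with Amd2 summed in, with 5 higher and 1 lower every time. Their log2 fold changes ranged from 0.23 to 0.28 for Odc1, 0.41 to 0.55 for Amd1, 0.48 to 0.56 for Srm, 0.43 to 0.55 for Sms, 0.25 to 0.34 for Azin1 and -0.32 to -0.27 for Oaz2. In the wider list, 2 genes fell with library totals only in place of 4. Mat2b, at -0.00 in the reported fit, had a log2 fold change of 0.029 with library totals only and 0.0070 with no filter on low counts, and ran from -0.040 to 0.047 when single libraries were left out. Max ran from -0.012 to 0.072 in the same way. The number of genes that rose in the wider list, 10 as reported, was 7 by DESeq2 and at an adjusted p under 0.01. It was 8 to 10 when single libraries were left out. With library totals only, with no filter on low counts and with the replicate number as a block, it was 13. Library totals and the block each added Adi1, Dohh and Slc18b1. Dropping the filter added Adi1, Dohh and a gene not tested in the reported fit, while Slc18b1 was not called (adjusted p = 0.0567). The numbers were not taken as pairs, since the labels state no pairing. Deviations from the group means had correlations of 0.101, 0.022 and 0.128 for same-numbered libraries, against -0.115 to 0.027 for libraries of different number. These values do not settle whether the libraries were paired. Adi1, Dohh and Slc18b1 each passed under 5 alternatives. Depth limits Sms, Smox and Paox most, with counting errors of 7.26%, 6.85% and 9.68% per control library.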
